A study of Rattus norvegicus with 12 samples.

Results

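The saline-treated diabetic wound of day 3 was compared with the 3 wounds that had received a dressing and were sampled on the same day. A gene belonged to the comparison when the control library lay strictly above the highest or strictly below the lowest of the dressed libraries in CPM, the read count scaled to a common library size by the trimmed mean of M values. Of 25620 genes in the count table, 15033 reached 40 reads summed over the 4 libraries and were tested, and 10587 were not. The control lay above the dressed range in 3695 tested genes (24.6%), below it in 3381 (22.5%) and inside it in 7957. These memberships were set by the measured values themselves and are a description, not a test.

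The animals were male Sprague-Dawley rats made diabetic with streptozotocin, a toxin of the insulin-producing beta cells, and carried full-thickness punch wounds on the back. The control wound received saline. The d-SMG wound received the dried mucus glue of the snail *Achatina fulica*, the s-GAG wound a solution of the sulfated glycosaminoglycan purified from that glue, and the Alg wound a commercial alginate dressing. All 4 wounds were labelled skin, and the same 4 treatments were sampled again on days 7 and 14, giving 12 libraries in all. Each treatment and day was 1 library, and the sources used here do not say whether a library was 1 animal or a pool, so the 3 dressings, which are different treatments, had to stand as the replicates of "dressed". The test of the mean difference therefore measures the control against the spread among dressings, with no replicate of the control itself.

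In the first days after wounding, skin fills with blood cells and then with neutrophils and macrophages, and fibroblasts and keratinocytes begin to close the gap later. Macrophages and other cells that sense microbial or damaged nucleic acids release type I interferon, which acts on a set of antiviral genes whose promoters carry the interferon-stimulated response element. Interferon gamma, from T and NK cells, raises MHC genes, the immunoproteasome and the chemokines Cxcl9, Cxcl10 and Cxcl11. In bulk tissue, fewer cells of a type and less RNA per cell cannot be told apart.

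The day 3 libraries held 23921685 (control), 16791836 (d-SMG), 15900086 (s-GAG) and 18613866 (Alg) reads in genes. The d-SMG library stood apart in its makeup: skeletal muscle genes took 22.5% of its reads against 6.12% to 10.3% in the other 3, and its summed level of 20 basal keratinocyte markers was 126 CPM against 6056 in the control, 13079 in s-GAG and 10937 in Alg. The d-SMG library lay outside the other 3 in 62.2% of tested genes, s-GAG in 56.6%, the control in 47.1% and Alg in 33.8%. Without d-SMG, the control lay above the remaining pair in 6339 of the 15033 tested genes and below it in 5799. The list counts without d-SMG given below are to be set beside these. Leaving out a library at the same scaling narrows the dressed range. A gene outside the range therefore stays outside it, and counts without d-SMG, here and below, could only stay or rise. Scaling by library size alone, in place of the trimmed mean, gave 4077 genes above and 2030 below. Ribosomal RNA took 0.137% of reads in the control, 0.0304% in d-SMG, 0.0279% in s-GAG and 0.10019% in Alg, and mitochondrial genes took 1.46% to 1.72%.

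Position against the dressed range moved with gene length. The length of a gene, as its reads and its FPKM value (reads scaled by gene length and depth) together imply, had a median of 2.54 kb for genes with the control above, 3.67 kb inside and 5.69 kb below. Among the 774 genes shorter than 1 kb the control was above in 41.9% and below in 7.88%, whereas among the 2260 genes longer than 8 kb it was above in 8.41% and below in 44.8%. On day 7 the order was the opposite, with 11.2% above and 52.6% below for the shortest genes, and 32.7% above and 17.0% below for the longest. When the trend with length was taken out of each library, the control lay above in 3211 genes, inside in 8553 and below in 3214. The lists that stood apart are therefore given below with their counts after that step as well, and the part of length in the single values was not tested.

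**Figure D1:**
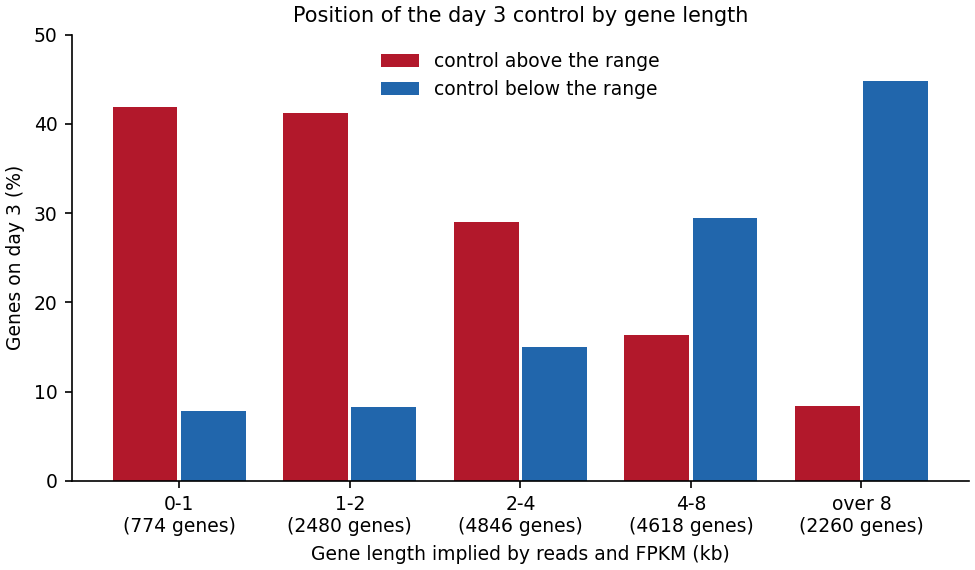
Share of tested genes (vertical axis, %) with the day 3 control above or below the 3 dressed libraries, by gene length in kb (horizontal axis, with the number of genes in each bin). Genes with the control above make up 41.9% of the shortest bin and 8.41% of the longest, and genes with the control below 7.88% and 44.8%.

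A gap was defined as the log2 ratio of the control to the nearest dressed library, with any count under 3 reads set to 3. The median gap was 0.25 for genes above the range and −0.27 for genes below it, so most memberships were narrow. The 95% counting interval of the gap, which covers counting error only, left out 0 for 3422 of the genes outside the range, 1861 above and 1561 below. A gap of at least 1 was found in 260 genes above (1.73%) and in 234 genes below (1.56%). At this border, *Tmem176b* and *Nqo1* (1.01) lay just inside the larger-gap set on the high side and *Aif1* (0.99) just outside it. On the low side *Lrp11* (−1.0004) lay just inside and *Ago3* (−0.99) just outside.

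The edgeR quasi-likelihood test of the control against the mean of the dressed libraries called no gene after Benjamini-Hochberg adjustment (0%). The common biological coefficient of variation among libraries was 0.4833, with 6 residual degrees of freedom. At an unadjusted p under 0.05, 210 genes were higher in the control (1.4%) and 134 were lower (0.891%), and the smallest unadjusted p was 0.000178, for *Irgm2*. DESeq2, which gave an adjusted p to 11531 genes, called 7 genes higher (0.0607%) and 5 lower (0.0434%). These were *Irgm2*, *Lgals9*, *Ifi27l2b*, *RT1-S3*, *Apol9a*, *Tap1* and *LOC102555634* on the high side, and *Krt25*, *Krt35*, *Krt85*, *Alas2* and *Tnc* on the low side. An edgeR exact test on the 4 libraries with the coefficient of variation set by hand to 0.3 called 218 higher (1.45%) and 340 lower (2.26%), and its count rests on that assumed spread.

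Among genes with at least 100 reads and a symbol that is not provisional (such as LOC or RGD with a number), the 8 widest gaps on the high side belonged to *Ccl12*, *Cxcl10*, *RT1-T24-3*, *Cyp4f37*, *Ifi27l2b*, *Ubd*, *Irgm2* and *Ifit3*. Over all tested genes the widest gaps were 3.07 above and −4.9995 below, both of provisional symbols. *Ccl12*, a chemokine that attracts monocytes, stood at 10.5 CPM in the control, 0.999 in d-SMG, 1.36 in s-GAG and 0.296 in Alg, a 7.69-fold gap to the nearest dressed library (95% counting interval 5.05 to 12.2). *Ubd*, a ubiquitin-like protein raised by interferon gamma and TNF, stood at 104 CPM in the control, 7.99 in d-SMG, 20.1 in s-GAG and 4.64 in Alg (5.17-fold, 4.62 to 5.79). *Irgm2*, an interferon-induced GTPase, stood at 122 CPM in the control, 21.3 in d-SMG, 23.7 in s-GAG and 12.1 in Alg. Its gap was 5.13-fold (4.63 to 5.70), and the dressed libraries lay closer to each other than any of them lay to the control (unadjusted p = 0.000178 and adjusted p = 0.9998 with edgeR, adjusted p = 0.00394 with DESeq2). *Cyp4f37*, of the cytochrome P450 family, stood at 4.08 CPM in the control, 0.416 in d-SMG, 0.510 in s-GAG and 0.691 in Alg (5.90-fold, 3.35 to 11.2).

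**Figure D2:**
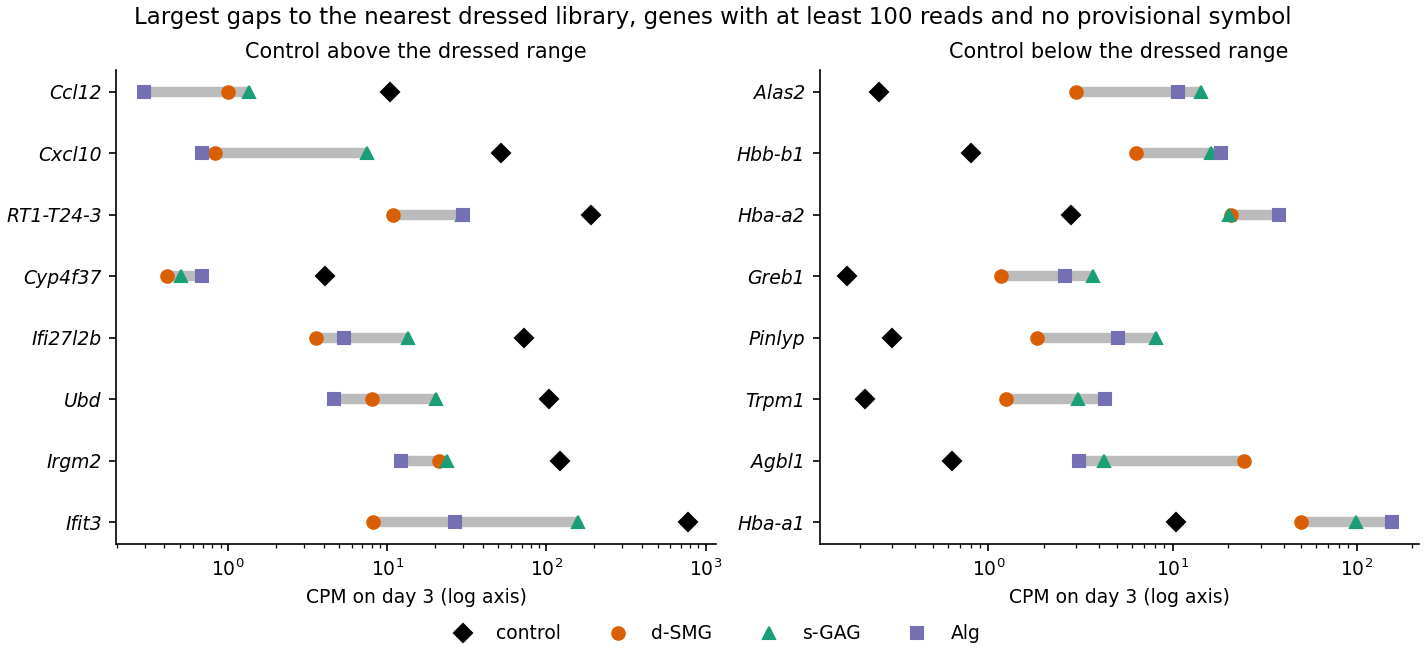
CPM on day 3 (log axis) of the 8 genes with the widest gap on each side among those with at least 100 reads and no provisional symbol; black diamonds are the control, coloured marks the 3 dressed libraries and grey bars the dressed range. On the left the control reaches 779.5 CPM for *Ifit3* and on the right it is at 0.255 CPM for *Alas2*, in each case outside the grey bar.

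Interferon response genes were the list with the most members above the range. Of the 33 tested members of this list, the control was above in 32 and inside in 1, against 24.6% above among all genes, and 28 had a gap of at least 1. The median log2 difference between the control and the mean of the dressed libraries was 2.68, against −0.05 for all genes tested. Of the 33 members, 24 were higher at an unadjusted p under 0.05 (1.4% of all genes) and none passed adjustment in edgeR or DESeq2. With the length trend removed, 31 members were above and 2 inside, with a median of 2.50. Without d-SMG the count above, which could not fall, was 32.

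Among these genes, *Ifit3* and *Ifit2* encode interferon-induced antiviral proteins of the same family, and *Isg15* a ubiquitin-like modifier. *Ifit3* stood at 779.5 CPM in the control, 8.16 in d-SMG, 159 in s-GAG and 26.6 in Alg (4.90-fold to s-GAG, 4.71 to 5.10). *Ifit2* stood at 410.2, 17.0, 87.8 and 28.9 CPM in the same order (4.67-fold, 4.43 to 4.93). *Isg15* stood at 389, 4.25, 90.3 and 10.4 CPM (4.31-fold, 4.09 to 4.55). In all 3 genes the s-GAG library came nearest to the control, and d-SMG was the lowest. *Mx1*, a dynamin-like antiviral GTPase, had 609 CPM in the control, 4.66 in d-SMG, 156 in s-GAG and 16.6 in Alg. *Rsad2*, which makes a chain-terminating nucleotide, had 72.8 CPM in the control, 0.167 in d-SMG, 22.8 in s-GAG and 1.18 in Alg. The members of the Ifit and Mx families are similar in sequence, so reads may have been split among copies.

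Transcription factors of the pathway lay above the range as well, as with *Stat2* (gap 1.54). *Irf7*, which amplifies interferon production, stood at 206 CPM in the control, 2.83 in d-SMG, 84.1 in s-GAG and 7.45 in Alg (gap 1.29). *Irf9* had 56.1, 21.1, 40.2 and 27.2 CPM in that order (gap 0.48). The narrowest member was *Trim25*, a ubiquitin ligase of the RIG-I pathway, with a gap of 0.02. The 1 member inside the range was *Ifit1*, with 8 reads in the control, 6 in d-SMG, 330 in s-GAG and 5 in Alg, so that only s-GAG held more than a few reads of it.

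The 250 bases before the gene start are shown for the interferon members with the widest gaps that had a promoter entry and held the core of the interferon-stimulated response element, and for 1 member without it. The letters searched were GAAANNGAA on both strands, and capitals mark a match on either strand (on the opposite strand it reads TTCNNTTTC). Sequences are from RefSeq on build GRCr8, written 5′ to 3′ in the direction of the gene, and the build behind the counts is not given in the sources used here.
*Ifit3* (chr1:241527076-241527325, plus strand): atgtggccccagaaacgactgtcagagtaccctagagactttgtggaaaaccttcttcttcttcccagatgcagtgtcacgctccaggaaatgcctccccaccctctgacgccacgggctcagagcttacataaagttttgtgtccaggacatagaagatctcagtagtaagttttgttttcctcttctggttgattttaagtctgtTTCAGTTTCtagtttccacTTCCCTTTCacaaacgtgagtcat
*Ifi44l* (chr2:243328473-243328722, plus strand): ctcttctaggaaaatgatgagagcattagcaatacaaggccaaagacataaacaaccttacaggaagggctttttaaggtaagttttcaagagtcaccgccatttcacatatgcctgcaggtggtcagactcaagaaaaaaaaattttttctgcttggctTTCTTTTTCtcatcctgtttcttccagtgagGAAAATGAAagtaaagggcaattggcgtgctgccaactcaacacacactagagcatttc
*Ifi44* (chr2:243303841-243304090, minus strand): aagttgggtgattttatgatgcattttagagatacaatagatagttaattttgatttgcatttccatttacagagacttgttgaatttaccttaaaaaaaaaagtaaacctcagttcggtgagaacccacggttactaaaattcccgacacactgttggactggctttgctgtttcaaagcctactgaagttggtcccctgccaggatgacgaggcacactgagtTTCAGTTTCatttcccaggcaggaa
*Mx1* (chr11:50294607-50294856, minus strand): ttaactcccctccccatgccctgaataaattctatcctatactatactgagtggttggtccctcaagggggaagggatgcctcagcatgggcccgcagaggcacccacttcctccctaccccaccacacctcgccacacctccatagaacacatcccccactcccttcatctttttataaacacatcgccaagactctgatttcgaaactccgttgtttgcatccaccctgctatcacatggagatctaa

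The matches began at −43 and −24 from the gene start in *Ifit3*, at −90 and −59 in *Ifi44l* and at −25 in *Ifi44*, while the *Mx1* window held none. *Ifi44l* stood at 17.4 CPM in the control, 0.499 in d-SMG, 3.97 in s-GAG and 1.33 in Alg, and *Ifi44* at 100.3, 9.57, 23.5 and 13.4. Both genes, of an interferon-induced family, had the control more than 4-fold above s-GAG (4.38-fold for *Ifi44l*, 3.39 to 5.73). Promoter entries matched 11486 of the 15033 tested genes. The letters were found in 7.99% of all promoters in the table and in 6.43% of those of tested genes. They were found in 56 of 177 genes above by a gap of at least 1 (31.6%), in 12 of 143 below by such a gap (8.39%) and in 15 of 22 interferon response genes (68.2%). Of the MHC and antigen presentation list, 6 of 16 promoters held them (37.5%), and of the erythroid list 0 of 8, too few promoters to show an absence. A match is a description of letters, not of a bound site.

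MHC and antigen presentation genes lay above the range in all 19 of 19 tested members, 7 of them by a gap of at least 1. Among all genes these shares were 24.6% and 1.73%. The list had a median log2 difference of 1.09. At an unadjusted p under 0.05, 9 members were higher (1.4% of all genes), with 1 called by DESeq2 and none by edgeR. All 19 stayed above with the length trend removed (median 0.93), and without d-SMG the count above could not fall. *Tap1*, which carries peptides into the endoplasmic reticulum, stood at 176 CPM in the control, 29.6 in d-SMG, 58.0 in s-GAG and 37.0 in Alg (3.04-fold, 2.83 to 3.25; DESeq2 adjusted p = 0.0488). *Psmb9*, an immunoproteasome subunit, stood at 64.1, 11.9, 17.8 and 15.7 CPM in that order, and *Ctss*, the protease that trims the class II invariant chain, at 161, 43.5, 56.1 and 36.7. The subunits and proteases thus kept the dressed libraries in a narrow band under the control. *B2m*, the light chain of class I molecules, had 1398 CPM in the control, 577 in d-SMG, 762 in s-GAG and 508 in Alg (1.83-fold, 1.80 to 1.87).

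The rat MHC, whose genes carry the prefix RT1, lies on chromosome 20. Of 31 tested RT1 genes the control was above in 25, inside in 5 and below in 1, against 24.6% above among all genes. A gap of at least 1 was found in 6 of them. Chromosome 20 held 19 of its 453 tested genes (4.19%) in the set above by such a gap, and 6 of the 19 were RT1 genes. The share was 1.73% over all tested genes and 0.471% to 2.53% on the other chromosomes. *RT1-T24-3*, a class I gene, stood at 189 CPM in the control, 10.9 in d-SMG, 29.4 in s-GAG and 29.8 in Alg (6.35-fold, 5.83 to 6.92). *RT1-S3* had 219, 28.7, 67.1 and 35.6 CPM in that order. RT1 genes are close copies of one another and vary among rat haplotypes, so the counts of single members are uncertain. On day 7 the control lay above in 1 of these 31 and below in 18, and on day 14 it lay above in 6. Among all tested genes these shares were 23.5%, 26.9% and 29.2%.

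Chemokines were above the range in 16 of 27 tested members, inside in 9 and below in 2, against 24.6% above among all genes. A gap of at least 1 was found in 7 of the 16, against 1.73% of all genes. The median log2 difference of the list was 0.64. At an unadjusted p under 0.05, 3 members were higher, against 1.4% of all genes. With the length trend removed 15 were above, 10 inside and 2 below. Without d-SMG 16 were above and 5 below, against 6339 and 5799 of all 15033 genes. *Cxcl10*, a ligand of CXCR3 on activated T cells, stood at 51.9 CPM in the control, 0.832 in d-SMG, 7.43 in s-GAG and 0.691 in Alg (6.99-fold, 5.84 to 8.44). In the other CXCR3 ligands the control was likewise first and s-GAG next. *Cxcl9* stood at 104, 13.6, 33.4 and 15.6 CPM and *Cxcl11* at 5.99, 0.583, 1.76 and 0.0494. *Cxcl17*, a mucosal chemokine, had 60 reads in the control, 0 in d-SMG, 13 in s-GAG and 0 in Alg. The members below were *Cxcl14* (gap −0.06) and *Ccl24* (gap −0.16), both by less than the 1 log2 unit used for the larger-gap set. *Ccl5*, a T cell attractant, was inside the range with 19 reads in the control, 6 in d-SMG, 45 in s-GAG and 1 in Alg.

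Cytokines and inflammatory mediators were above in 20 of 24 tested members, inside in 2 (*Il6* and *Ptgs2*) and below in 2. Their median log2 difference was 0.86, 5 had a gap of at least 1, and 1 was higher at an unadjusted p under 0.05. Among all genes, 24.6% were above, 1.73% by such a gap, and 1.4% were higher at that p. The list counts were 19 above, 3 inside and 2 below with the length trend removed, and 20, 1 and 3 without d-SMG. Without d-SMG, 6339 of all 15033 genes were above. *Nos2*, the inducible nitric oxide synthase of inflammatory macrophages, stood at 11.8 CPM in the control, 1.17 in d-SMG, 2.83 in s-GAG and 1.93 in Alg (4.17-fold, 3.08 to 5.75; unadjusted p = 0.0611). *Tnfsf10*, the death ligand TRAIL, stood at 61.2, 7.16, 16.8 and 14.0 CPM (unadjusted p = 0.000745; DESeq2 adjusted p = 0.0504). These were the widest 2 gaps of this list, at 2.06 and 1.87. *Tlr7*, a sensor of single-stranded RNA, stood at 29.7, 10.5, 8.96 and 7.90 CPM. *Il10*, an anti-inflammatory cytokine, had 43 reads in the control, 5 in d-SMG, 15 in s-GAG and 4 in Alg (2.15-fold, 1.17 to 4.17). The members below were *Lif* (gap −0.30) and *Osm* (gap −0.47), a pair of cytokines of the IL-6 family.

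The study's text names further genes of inflammation and macrophage state, for the sequencing on day 3 or for PCR. Its PCR changes in wound tissue were reported for the d-SMG group on day 14. The following values are levels in the day 3 libraries, so for the PCR genes they are of another day. *Nos2*, given above, had the widest gap of them. *Tnf* had 53 reads in the control, 5 in d-SMG, 31 in s-GAG and 17 in Alg, and its gap of 1.28-fold had a counting interval that included 1 (0.808 to 2.07). *Il1b* stood at 11.4 CPM in the control, 4.83 in d-SMG, 8.11 in s-GAG and 6.57 in Alg (1.41-fold, 1.15 to 1.74). *Il18* stood at 7.82, 7.08, 5.22 and 3.999 CPM, and its gap of 1.11-fold (0.850 to 1.45) was not distinguishable from 1 at this depth. *Tlr5*, the receptor for flagellin, stood at 15.2, 7.49, 7.20 and 7.26 CPM (2.03-fold, 1.60 to 2.58), with the dressed libraries nearly level. *Cd86*, a costimulatory molecule, stood at 3.36, 2.25, 1.98 and 0.691 CPM (1.49-fold, 0.954 to 2.41). The control lay inside the range for *Ccl5*, given above, and for 4 genes of the alternative macrophage programme or of signalling. *Mrc1* stood at 193, 209, 143 and 200.0 CPM, *Cd163* at 329, 418, 217 and 351, *Arg1* at 8.12, 13.8, 8.79 and 7.95, and the kinase *Jak3* at 5.82, 7.33, 5.16 and 6.86.

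Macrophage markers were above the range in 14 of 22 tested members and inside in 8, with none below. Their median log2 difference was 0.94, 4 had a gap of at least 1 and 2 were higher at an unadjusted p under 0.05. Among all genes, 24.6% were above, 1.73% by such a gap, and 1.4% were higher at that p. The summed level of the list was 5138 CPM in the control, 4314 in d-SMG, 2841 in s-GAG and 2027 in Alg, so the dressed wounds themselves differed. With the length trend removed 13 were above, 8 inside and 1 below. Without d-SMG 16 were above and 6 inside, against 6339 above among all 15033 genes. *Adgre1*, which encodes F4/80, stood at 39.1 CPM in the control, 10.2 in d-SMG, 16.0 in s-GAG and 12.3 in Alg, and *Cd14*, the lipopolysaccharide co-receptor, at 36.9, 17.5, 8.28 and 13.9. *Marco*, a scavenger receptor, had 37 reads in the control, 2 in d-SMG, 3 in s-GAG and 0 in Alg. Its gap was 6.30-fold with counts under 3 set to 3. The counting interval of 2.93 to 46.9 is of the ratio to s-GAG on the reads as counted. The control was highest in the summed level of this list and of the interferon list, but among the dressed wounds the orders differed, with d-SMG the highest in macrophage markers and the lowest in interferon genes (447 CPM, against 1870 in s-GAG and 621 in Alg). The part of macrophage markers in the interferon, MHC and chemokine differences was not tested.

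Other immune markers were fewer or less separated, beside 24.6% above among all genes. Of 16 neutrophil genes 6 were tested, with 3 above and 3 inside, and their summed level was 141 CPM in the control, 32.8 in d-SMG, 44.1 in s-GAG and 128 in Alg. The granule genes *Mpo*, *Elane*, *Ltf* and *Camp* had too few reads to test. *Lcn2*, an iron-binding defence protein, stood at 62.8, 21.2, 1.08 and 17.0 CPM (gap 1.56). T and NK cell markers were above in 2 of 19 and inside in 17, with a median log2 difference of −0.41. *Gzma*, a granzyme, was the 1 member with a gap of at least 1, with 44 reads in the control, 1 in d-SMG, 9 in s-GAG and 3 in Alg. Mast cell markers were inside the range in 8 of 8, summing to 54.7 CPM in the control, 26.2 in d-SMG, 106 in s-GAG and 114 in Alg.

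**Figure D3:**
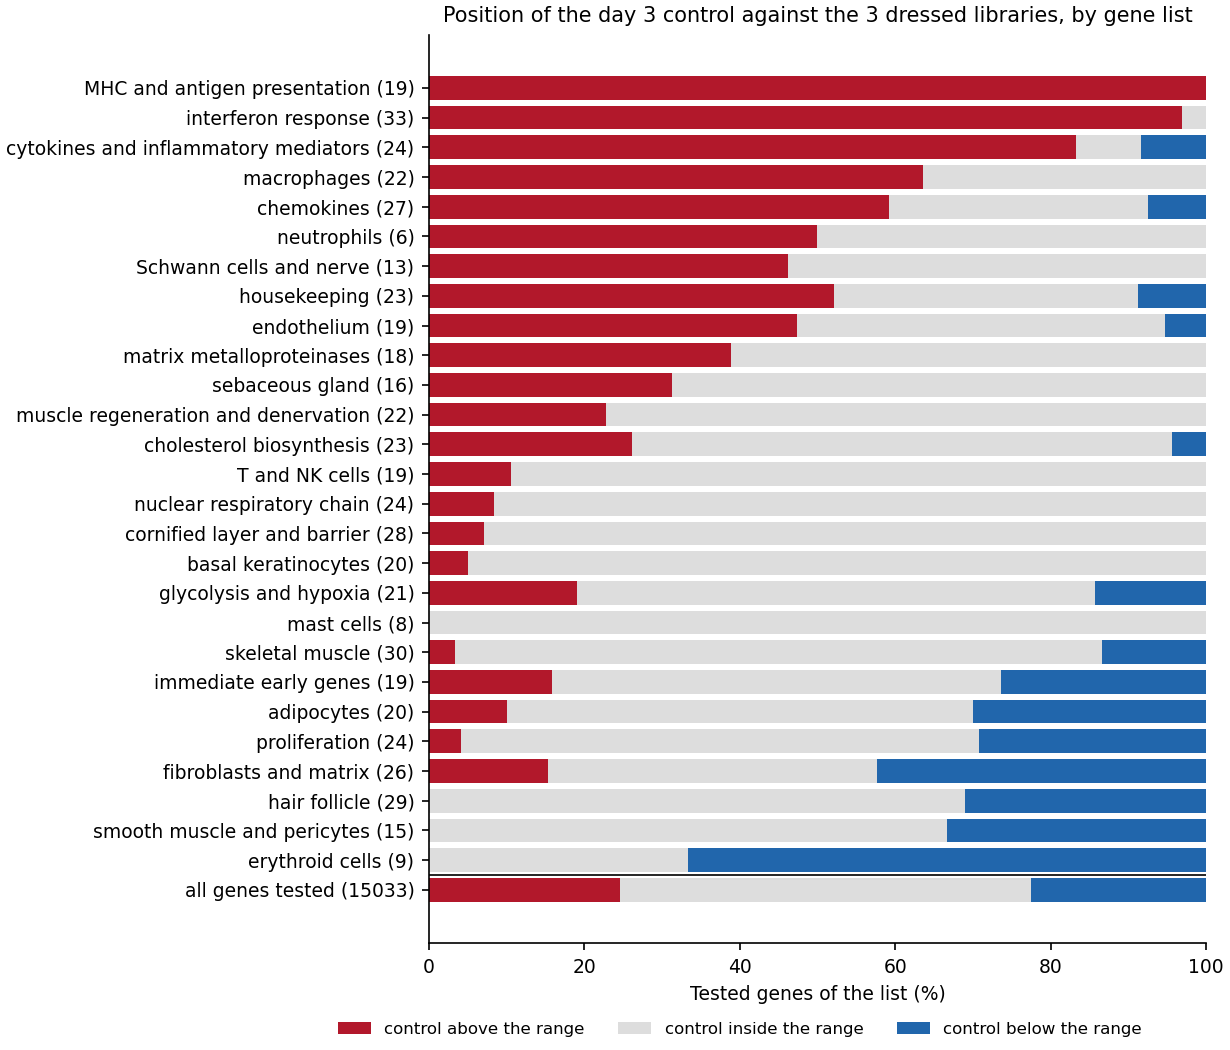
Share of tested genes of each list (horizontal axis, %) with the day 3 control above, inside or below the 3 dressed libraries; the number of tested genes is in brackets and the bottom bar is all 15033. MHC and antigen presentation (19 of 19) and interferon response (32 of 33) are almost wholly above, and erythroid cells have the largest share below (6 of 9).

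On the low side, the 3 widest gaps under the same limits of reads and symbols were of erythroid genes. Of 15 listed genes 9 were tested, and the control was below in 6, all by a gap of at least 1, and inside in 3, against 22.5% below among all genes. Their median log2 difference was −3.66, 6 were lower at an unadjusted p under 0.05 (0.891% of all genes), and DESeq2 called 1. The counts were 8 below and 1 inside with the length trend removed, and the same without d-SMG, where the count below could only stay or rise. Among all 15033 tested genes 5799 were below without d-SMG. *Alas2*, the first enzyme of heme synthesis in red cells, had 6 reads in the control, 36 in d-SMG, 251 in s-GAG and 216 in Alg, and was 11.8-fold lower in the control than in d-SMG (4.90 to 34.1). *Hba-a1*, an alpha globin, stood at 10.4 CPM in the control, 49.5 in d-SMG, 98.9 in s-GAG and 154 in Alg (4.77-fold lower, 4.10 to 5.56), and *Hbb-b1*, a beta globin, at 0.808, 6.33, 16.2 and 18.2. The control held the least of each of them. Globin genes are near-identical copies, so how reads fell among them is uncertain. *Epb42*, *Ahsp*, *Gata1* and *Klf1*, which mark developing red cells, had too few reads to test. The summed level of the tested genes was 18.7 CPM in the control, 96.9 in d-SMG, 213 in s-GAG and 296 in Alg.

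The other genes of wide gap below under those limits, *Hba-a1* and *Hba-a2* apart, were on no list and had few reads in the control. *Greb1*, an estrogen-regulated gene, had 4 reads in the control, 14 in d-SMG, 65 in s-GAG and 53 in Alg. *Pinlyp* had 7, 22, 143 and 102 reads, *Trpm1*, a cation channel of melanocytes, 5, 15, 54 and 87, and *Agbl1* 15, 293, 75 and 63. With such counts the control was separable from the nearest library, as for *Greb1* (6.85-fold lower, 2.15 to 28.6), but the size of the gap was poorly fixed.

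Fibroblast and matrix genes were below in 11 of 26 tested members, inside in 11 and above in 4, with a median log2 difference of −0.43. Of the 11 below, 2 had a gap of at least 1, and 1 member was lower at an unadjusted p under 0.05. Among all genes, 22.5% were below, 1.56% by such a gap, and 0.891% were lower at that p. The list had a median length of 5.07 kb, and with the length trend removed 9 were below, 13 inside and 4 above (median −0.35). Without d-SMG 19 were below, against 5799 of all 15033 genes. *Tnc*, tenascin C, a matrix glycoprotein of wound edges, stood at 24.1 CPM in the control, 120.4 in d-SMG, 187 in s-GAG and 99.96 in Alg. It was 4.16-fold lower in the control than in Alg (3.78 to 4.57; unadjusted p = 0.00398; DESeq2 adjusted p = 0.0488), and its gap went from −2.05 to −1.74 when the length trend was removed. *Col12a1*, a collagen that decorates fibrils, stood at 37.7, 133, 254 and 123 CPM (3.27-fold lower, 3.03 to 3.54). *Col1a1*, the main fibrillar collagen of skin, was inside the range at 1654 CPM in the control, 1639.8 in d-SMG, 6791 in s-GAG and 2939 in Alg.

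Hair follicle genes separated the libraries in pairs rather than the control from all dressings. The control was below in 9 of 29 tested members and inside in 20, 2 of the 9 by a gap of at least 1, and the summed level was 37.8 CPM in the control, 28.1 in d-SMG, 11117 in s-GAG and 3250 in Alg. Among all genes the control was below in 22.5%, and without d-SMG in 5799 of 15033. Without d-SMG, it was below in 29 of 29 hair follicle genes. The median log2 difference was −7.64, and by dressing it was 0.13 against d-SMG, −8.79 against s-GAG and −6.48 against Alg. *Krt25*, a keratin of the inner root sheath, had 11 reads in the control, 18 in d-SMG, 12939 in s-GAG and 7261 in Alg (DESeq2 adjusted p = 0.0011), a call on the mean of the dressed libraries to which d-SMG added almost no reads. Hair keratins *Krt35* (2, 3, 2932 and 2416 reads) and *Krt85* (1, 3, 3684 and 1902 reads) had the same shape.

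The epidermal and sebaceous lists put the control mostly inside the range. Among all tested genes it was above in 24.6% and below in 22.5%. Without d-SMG it was above in 6339 and below in 5799 of all 15033. Basal keratinocyte genes were above in 1 of 20 and inside in 19, with a median log2 difference of −0.42, and cornified layer genes above in 2 of 28 and inside in 26, with a median of −0.32. For both, d-SMG set the low end, and without it the control was below in 19 of 20 and in 20 of 28. Sebaceous gland genes were above in 5 of 16 (31.2%) and inside in 11. Cholesterol biosynthesis genes were above in 6 of 23 (26.1%, near the share of all genes), inside in 16 and below in 1, with a median of 0.10. None of 16 promoters held the sterol element letters TCACNCCAC. Only 0.976% of all promoters held these letters, so 16 promoters were too few to show an absence. Adipocyte genes were above in 2 of 20, inside in 12 and below in 6, and without d-SMG 15 were below.

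Muscle, vessel and nerve lists followed, beside 24.6% above and 22.5% below among all genes. Without d-SMG, 6339 of all 15033 genes were above and 5799 below. Skeletal muscle genes were above in 1 of 30, inside in 25 and below in 4, with a median of −0.66, and without d-SMG, the library richest in them, 19 were above. *Myh2*, a fast myosin heavy chain, was the member below by a gap of at least 1, at 181 CPM in the control, 1505 in d-SMG, 2245 in s-GAG and 442 in Alg. Muscle regeneration and denervation genes were above in 5 of 22 and inside in 17. Smooth muscle and pericyte genes were below in 5 of 15 and inside in 10, while endothelial genes were above in 9 of 19, inside in 9 and below in 1. *Cldn5*, a tight junction protein of endothelium, stood at 44.8, 18.3, 11.2 and 25.7 CPM. Schwann cell and nerve genes were above in 6 of 13 and inside in 7, and *Ngfr*, the low-affinity neurotrophin receptor, stood at 16.9, 5.91, 7.94 and 5.92 CPM.

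The lists of general cell functions were mixed, beside 24.6% above and 22.5% below among all genes. Without d-SMG, 6339 of all 15033 genes were above and 5799 below. Proliferation and immediate early genes, with 29.2% and 26.3% below, were near the 22.5%. Matrix metalloproteinases were above in 7 of 18 and inside in 11, with *Mmp13*, a collagenase, at 16.9 CPM in the control, 0.499 in d-SMG, 6.07 in s-GAG and 7.31 in Alg. Proliferation genes were above in 1 of 24, inside in 16 and below in 7, and *Mki67* stood at 136, 212, 343 and 326 CPM. Nuclear respiratory chain genes were above in 2 of 24 and inside in 22, and without d-SMG 23 were above. Immediate early genes were above in 3 of 19, inside in 11 and below in 5, with *Fosb* at 8 reads in the control, 17 in d-SMG, 28 in s-GAG and 21 in Alg. Glycolysis and hypoxia genes were above in 4 of 21, inside in 14 and below in 3. Housekeeping genes were above in 12 of 23, inside in 9 and below in 2, with a median log2 difference of 0.38, or 0.16 with the length trend removed. The widest gap of this list (0.88) was of *B2m*, given above with the MHC genes. *Hprt1*, a housekeeping gene of purine salvage, stood at 73.0 CPM in the control, 49.8 in d-SMG, 47.0 in s-GAG and 42.3 in Alg, a shift to be set beside the smaller gaps above.

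Most genes with wide gaps lay outside these lists. Of the 260 above by a gap of at least 1, 205 were on none of the 27 lists, and of the 234 below, 222 were on none. Long noncoding RNAs made up 29 of the 260 (11.2%) and 51 of the 234 (21.8%), against 5.1% of all tested genes. Median reads in the 4 libraries were 832.5 in the high set and 216 in the low set, against 1059 for all tested genes. The counting interval left out 0 for 251 of the 260 and 194 of the 234. The genes above by such a gap were short (median 2.30 kb) and those below long (6.48 kb). With the length trend removed, 180 of the 260 and 157 of the 234 kept a gap of at least 1.

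Later wounds were other samples, so they show whether the same genes stood apart again. On day 7 the control lay above the dressed range in 3539 genes (23.5%) and below it in 4044 (26.9%), and on day 14 in 4384 (29.2%) and 4342 (28.9%). Of the 260 genes above by a gap of at least 1 on day 3, the control on day 7 was above in 44, inside in 125 and below in 91, and on day 14 above in 118, inside in 110 and below in 32. Their median log2 difference was 1.83 at first, −0.13 on day 7 and then 0.43. The 234 genes below had medians of −1.71, −0.01 and 0.60 in the same order. On day 14 the control was thus above in 45.4% of the high set and in 47.4% of the low set. Length moved with position on that day too, with the control above in 8.66% of genes shorter than 1 kb and in 52.7% of those longer than 8 kb. The high set was short (median 2.30 kb) and the low set long (6.48 kb), so 29.2% of all genes is a matched background for neither. On day 14 the control was above in 22.9% of genes of 2 to 4 kb and in 36.3% of those of 4 to 8 kb. The part of length in these 2 shares was not tested.

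The test of the day 3 difference against the mean of the day 7 and day 14 differences called no gene with edgeR (0%). At an unadjusted p under 0.05, the day 3 difference was above the later ones for 246 genes (1.64%) and below them for 182 (1.21%), and the smallest adjusted p was 0.934. DESeq2 called 1 of 15027 genes (0.00665%), the class I gene *RT1-A3*. It stood at 250.4 CPM in the control of day 3, above the day 3 dressed wounds at 71.0 in d-SMG, 180.3 in s-GAG and 55.6 in Alg. On day 14 its control stood at 3.01 CPM, below dressed wounds at 61.0 to 137 CPM (adjusted p = 0.0498).

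**Figure D4:**
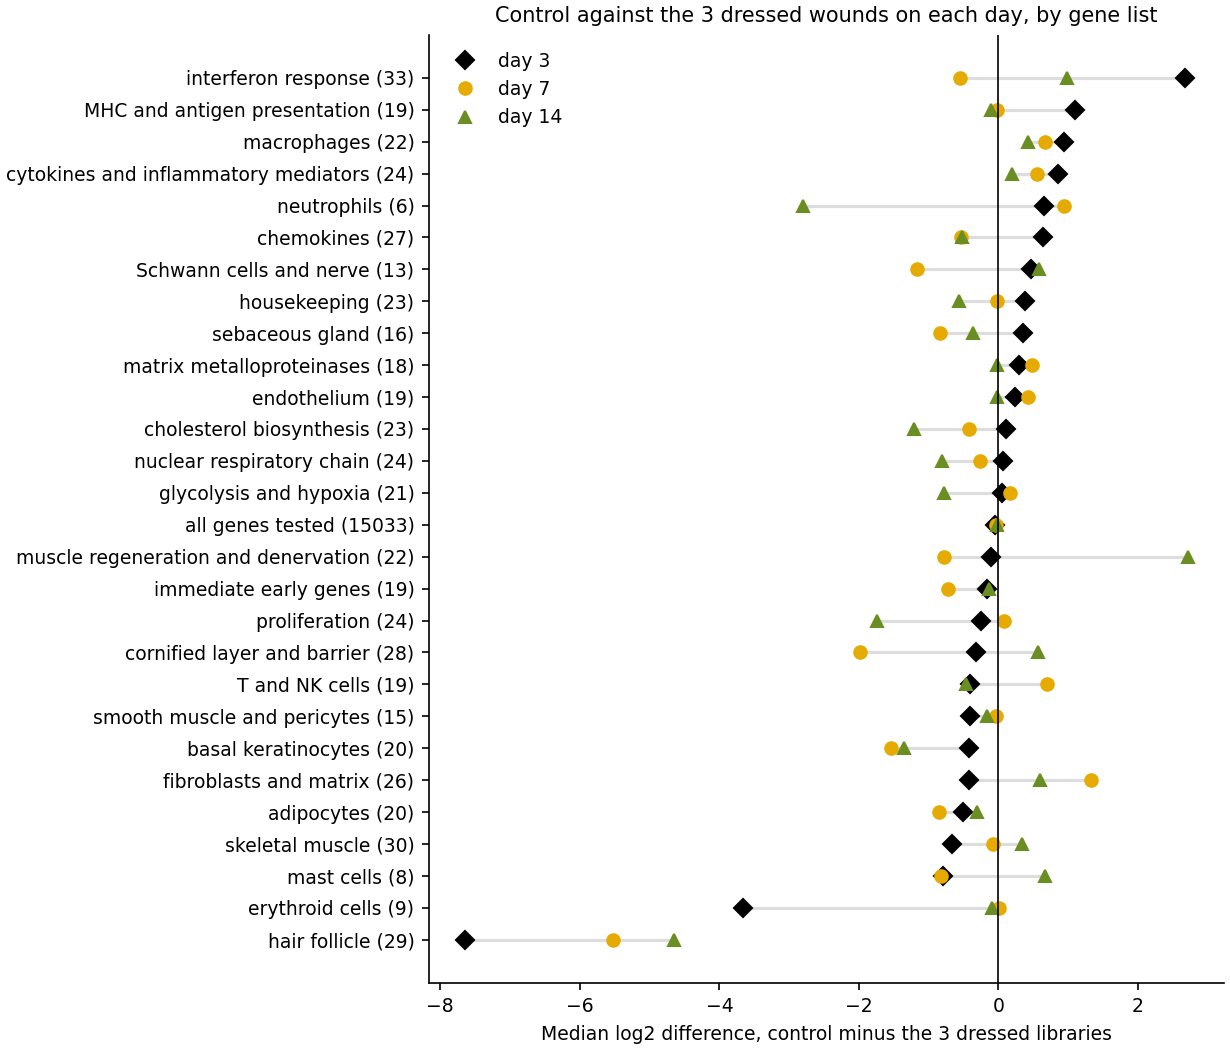
Median log2 difference of each list between the control and the 3 dressed libraries (horizontal axis) on days 3, 7 and 14, with the number of tested genes in brackets; positive values are higher in the control. Interferon response starts at 2.68, then stands at −0.55 and 0.98, and hair follicle stays negative on each day.

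By list, the interferon response was above in 2, inside in 15 and below in 16 of 33 members on day 7 (median −0.55), and above in 27 and inside in 6 on day 14 (median 0.98). *Isg15* stood on day 7 at 9.82 CPM in the control, 15.0 in d-SMG, 54.2 in s-GAG and 34.9 in Alg, and on day 14 at 38.9, 29.2, 23.8 and 12.8. The control of day 7 was thus the lowest of its day and that of day 14 the highest. *Cxcl10* had 0.203, 1.20, 15.8 and 1.86 CPM on day 7. MHC and antigen presentation genes were above in 1 of 19 on day 7 and in 6 on day 14, against 23.5% and 29.2% of all genes. That list is short (median 1.57 kb), and genes of 1 to 2 kb were above in 15.4% on day 7 and 12.7% on day 14. The part of length in these counts was not tested. Of the 33 interferon members, 13 had an unadjusted p under 0.05 for a day 3 difference above the later days, as did 7 of 19 MHC members and 6 of 27 chemokines, against 1.64% of all genes.

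Matrix and erythroid genes lay elsewhere against the dressed range on the later days. Fibroblast and matrix genes were above in 22 of 26 on day 7 and in 16 on day 14. The shares among all tested genes were 23.5% and 29.2%. This list is long (median 5.07 kb). For genes of 4 to 8 kb the share above was 16.3% in the day 3 wounds, then 28.3% and 36.3% in those of days 7 and 14. The part of length in the matrix counts of the later wounds was not tested. *Tnc* stood on day 7 at 865 CPM in the control, 155 in d-SMG, 191 in s-GAG and 110.0 in Alg, and on day 14 at 28.2, 159, 82.7 and 174. *Col12a1* reached 3357 CPM in the control of day 7, against 995, 219 and 427 in the dressed wounds. *Hba-a1* stood on day 7 at 77.8 CPM in the control, inside a dressed range of 12.1 to 144, and erythroid genes on that day were above in 1, inside in 7 and below in 1. Hair follicle genes were below in 28 of 29 on both later days, against 9 of 29 on day 3. Among all genes 26.9% were below on day 7, 28.9% on day 14 and 22.5% on day 3.

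**Figure D5:**
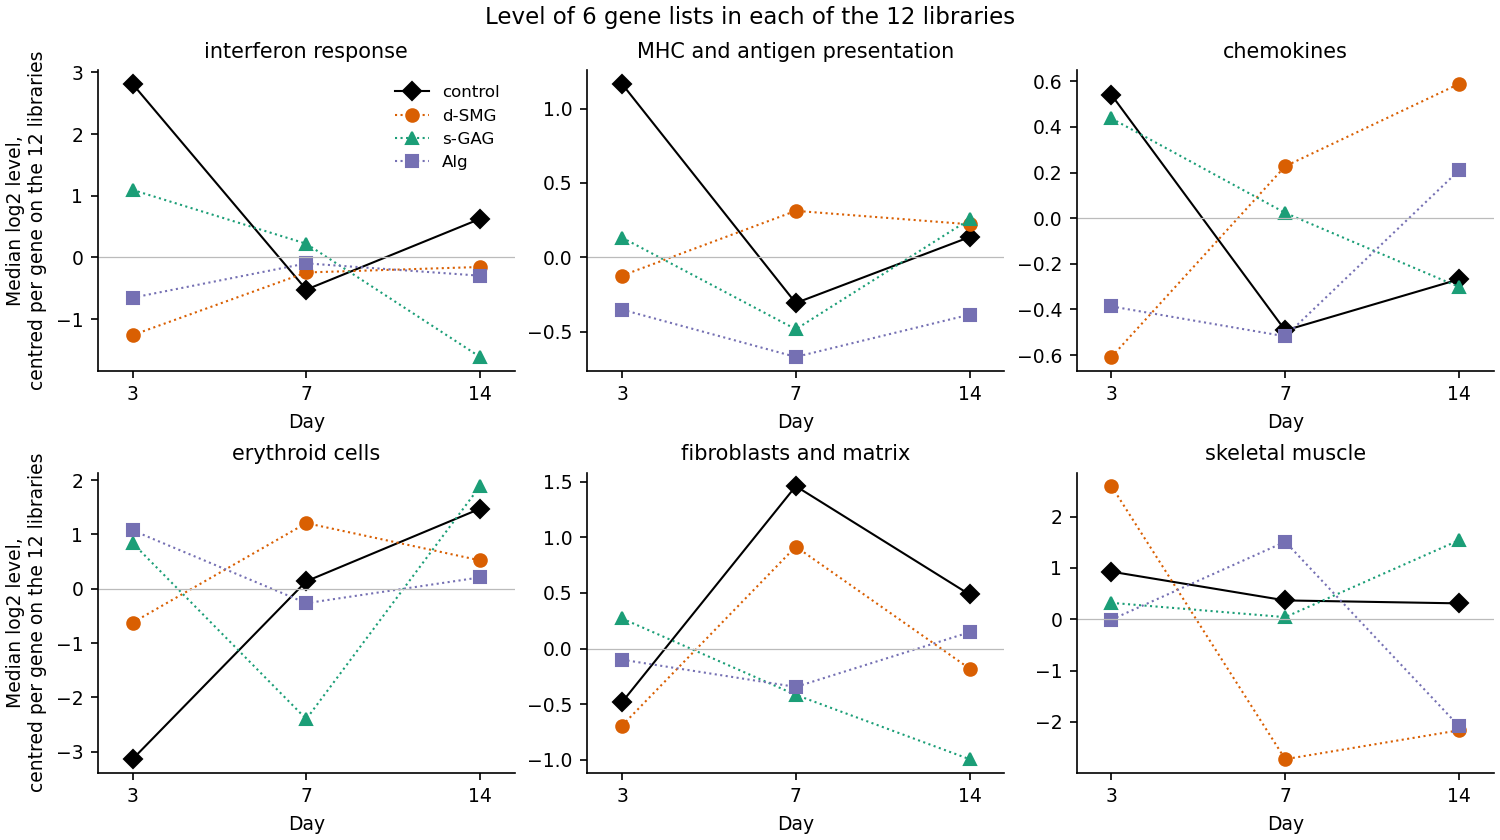
Median log2 level of 6 gene lists in each of the 12 libraries (vertical axis, centred per gene on the 12 libraries) by day; lines join libraries of 1 treatment and different wounds. For the interferon response, the control of day 3 is at 2.81, s-GAG at 1.10, Alg at −0.65 and d-SMG at −1.26.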

How the data were processed

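Wound skin of diabetic rats was sequenced as stranded, ribosomal RNA-depleted libraries with paired reads of 150 bases. The labels, in the submitters' processing notes, name bcl2fastq, FastQC, TopHat2 and edgeR without versions; the counting tool and genome build are not given in the sources used here. The deposited table of read counts per gene was used for every test, and the FPKM values deposited by the authors for gene lengths and as an alternative. Of the value columns of each file, 1 matched no sample and was not used. Genes with at least 40 reads in the 4 day 3 libraries were kept. Counts were scaled by TMM factors from all 12 libraries and tested with edgeR 4.0.16 (glmQLFit, two-sided, limma 3.58.1, R 4.3.3) in a model of 6 groups, control or dressed on each day, so that the spread among dressings gave 6 residual degrees of freedom and the lone control was assumed to vary like them. DESeq2 1.42.0 and an exact test with a set coefficient of variation of 0.3 were alternatives. p-values measure only the spread between these libraries. In the gaps, values under 3 reads were set to 3. The exact binomial intervals at 95% are of the ratio to the nearest dressed library on the reads as counted. Named genes were the 8 widest gaps on each side with at least 100 reads and no provisional symbol, the 5 smallest p-values in each direction, up to 4 members per list and genes of inflammation and macrophage state that the study names for day 3 or for PCR; *Irf7*, *Stat2*, *Irf9*, *Rsad2*, *Col1a1* and the list members given as exceptions were added with their values seen. Members and the 27 lists were chosen with earlier results of these data known. The removal of the length trend (median log2 deviation in 20 bins of length) was chosen after seeing the data. The edgeR, DESeq2 and exact-test fits of the day 3 difference were tested on simulated counts. The simulated coefficient of variation was at most 0.3, below the 0.4833 of these data. The range rule, gaps, removal of the length trend, list counts, promoter search and comparison with later days were not simulated. Tables and figures were made with Python 3.11.15, pandas 2.3.3 and matplotlib 3.10.9.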

Additional observations from a re-analysis of the deposited data

Results flagged for a closer look

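In 5 cases the median level of a gene list, centred per gene, put the control on one side of all 3 dressed libraries on day 3 and on the other side on a later day. For the interferon response the control lay 3.09 log2 units above the mean of the dressed libraries on day 3 and at −0.48 on day 7. Schwann cell and nerve genes went from 0.56 on day 3 to −0.86 on day 7. Housekeeping genes went from 0.42 on day 3 to −0.059 on day 7 and −0.47 on day 14, and these genes are short, with a median of 1.98 kb. Smooth muscle and pericyte genes went from −0.26 on day 3 to 0.044 on day 14. Each value rests on 1 control library a day, and the differences between days were not tested over these list medians.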

How the results depend on the processing

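Leaving out each dressed library in turn gave 4315 to 6339 genes above the range and 3947 to 5799 below it, with 393 to 658 above and 336 to 1126 below by a gap of at least 1; the upper values came without d-SMG. Leaving out s-GAG gave 473 genes above by such a gap. Without the read filter 5607 genes were above, and that setting moved the median of all genes to −0.11. Scaling by library size left 2030 below and FPKM with a pseudocount of 1 left 1903, and under that pseudocount 139 were above and 18 below by a gap of at least 1. A minimum of 400 reads gave 163 and 82. For the day 3 test, DESeq2 called 12 genes and the exact test with the coefficient of variation set to 0.3 called 558, while 344 passed an unadjusted p under 0.05; for the day 3 difference against later days these were 1 with DESeq2 and 428 unadjusted. All other settings of both tests called 0. The cause was not tested.

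Of the single-gene differences, 13 changed sign: without s-GAG *Hpgds* (range over left-out libraries −1.13 to 0.21), *Kit* (−0.88 to 0.0092), *Ccl5* (−0.96 to 1.71) and *Mrc1* (−0.065 to 0.15); *Ccl5* on FPKM with pseudocount 1 (0.12) and 0.1 (0.75); and *Cd163* with library size (0.073), the 4 day 3 libraries alone (0.0077), FPKM with pseudocount 1 (0.12) or 0.1 (0.13), without d-SMG (0.15) or Alg (0.067; −0.20 without s-GAG), and with the length trend removed (0.22). Of the list medians, 285 stayed within the spread and 12 moved. No paired analysis was possible because the labels give no replicate numbers shared by the 2 groups of day 3; day is part of the groups in the model. Counts under about 100 reads limit the gaps of low genes.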

Other observations

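Several genes on none of the lists also had the control of day 3 far above every dressed wound; they were chosen after their values were seen. *Siglec1*, a sialic acid receptor of macrophages, stood at 59.4 CPM in the control, 7.58 in d-SMG, 12.4 in s-GAG and 7.16 in Alg. *Gbp2*, an interferon-induced guanylate-binding protein, stood at 1242, 102, 400.5 and 134 CPM in that order. *Ly6e*, a membrane protein raised by interferon, stood at 240.0, 35.5, 50.001 and 34.3 CPM. *Acod1*, which makes itaconate in activated macrophages, had 136 reads in the control, 1 in d-SMG, 33 in s-GAG and 6 in Alg. *F10*, coagulation factor X, stood at 40.9, 0.333, 8.45 and 2.86 CPM. In each of them s-GAG was the highest dressed library.

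On the low side, *Sfrp4*, a secreted modulator of Wnt signalling, stood at 11.9 CPM in the control, 94.4 in d-SMG, 65.99 in s-GAG and 38.3 in Alg. *Kmt2d*, a histone methyltransferase with a very long transcript, stood at 51.4 CPM in the control and at 159.7, 155 and 155 in the dressed wounds, which were nearly level with one another.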
